A study of Mus musculus with 24 samples.

Results

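Simple epithelium is the single-layered cell sheet that lines the uterus and its glands, and 10 genes that give it its identity were followed across uteri with and without Ctcf. They are the keratins Krt7, Krt8, Krt18 and Krt19, the adhesion genes Cdh1 and Epcam, the transcription factor genes Ovol1, Ovol2 and Grhl2, and the splicing factor gene Esrp1. They were chosen by symbol, and all 10 are among the 22943 genes of the table. All 10 also passed the filter on low values that left 14284 genes for testing.

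In simple epithelia, type II keratins such as Krt7 and Krt8 pair with type I keratins such as Krt18 and Krt19 to build intermediate filaments. Cdh1 encodes E-cadherin of adherens junctions, and Epcam encodes a membrane glycoprotein of epithelial cells that binds claudins. Grhl2 is a grainyhead-family activator of junction genes, Ovol1 and Ovol2 are zinc finger repressors that hold down mesenchymal regulators, and Esrp1 directs the epithelial forms of many spliced transcripts. In the uterus these genes mark luminal and glandular epithelium, which responds to progesterone both directly and through the stroma.

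RNA of whole uteri from 21-day-old female C57bl/6 mice was sequenced in 24 libraries. Knockout mice carried Ctcf-f/f alleles with PgrCre, a Cre recombinase driven from the progesterone receptor gene, so that Ctcf, the gene of a DNA-binding chromatin loop factor, is deleted in cells that express Pgr and in their descendants. Controls were littermates with the same floxed alleles and no Cre. Uteri were taken 6 hours after an injection under the skin of 0.5 mg of progesterone in 0.05 ml of sesame oil, or of 0.05 ml of oil alone as vehicle. There were 8 floxed and 8 knockout vehicle libraries, and 4 floxed and 4 knockout progesterone libraries. The labels name 2 library batches: a mixed batch with 4 libraries of each group, and a vehicle-only batch with the other 4 vehicle libraries of each genotype. Values are RPKM, reads scaled both to library size and to the length of the gene, after the authors' batch correction. The length scaling lets levels of different genes be compared, but the correction added a constant per gene by batch. Comparisons between genes, ratios and sums carry that limit. A level is given with its SD and a log2 fold change with its SE.

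Depth, read from the steps between low values, ranged from 29900000 to 101000000 reads per library, with a median of 72700000 for mixed and of 49850000 for vehicle-only libraries. Ctcf itself was 25.9 ± 2.36 RPKM (n = 8) in floxed and 11.5 ± 1.11 RPKM (n = 8) in knockout uteri after vehicle, and 26.0 ± 1.05 RPKM (n = 4) and 9.95 ± 0.982 RPKM (n = 4) after progesterone, with no overlap between genotypes. In 5 libraries of the mixed batch, markers of other epithelia stood apart. The summed level of 8 oviduct and ciliated cell genes reached 447.5 RPKM in floxed progesterone library 7, 253.6 RPKM in vehicle library 12 of the knockouts and 151.7 RPKM in vehicle library 3 of the floxed mice, against medians of 3.99 to 7.39 RPKM in the groups of that batch. The sum of 12 stratified epithelium genes was highest in 2 knockout libraries, at 140.8 RPKM in vehicle library 9 and 63.1 RPKM in progesterone library 8. Each member result is therefore also given without these 5 libraries where that changes its call. Whether every library is a separate animal is not in the labels, and p-values then reflect just the variation among these libraries. Floxed vehicle libraries 1a and 1b share a number across the batches, as do knockout vehicle libraries 11a and 11b. Each was counted as a separate library, and whether such a pair comes from 1 animal was not checked.

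By level the members formed 3 tiers. In floxed vehicle uteri Krt18 was 87.1 ± 12.4 RPKM, Krt8 83.2 ± 8.38 RPKM and Krt19 82.4 ± 16.9 RPKM (n = 8 each), which did not differ beyond their spread. Next came Cdh1 at 33.8 ± 4.10 RPKM, Epcam at 31.1 ± 3.35 RPKM and Krt7 at 27.4 ± 6.6 RPKM, neighbours whose SDs also overlapped. The regulators were low: Esrp1 stood at 8.94 ± 0.882 RPKM, Grhl2 at 6.31 ± 1.49 RPKM, Ovol2 at 1.82 ± 0.501 RPKM and Ovol1 at 1.26 ± 0.118 RPKM. In knockout vehicle uteri the top tier was closer to Epcam, with Krt8 at 58.9 ± 10.7 RPKM, Krt18 at 57.2 ± 11.6 RPKM, Krt19 at 49.6 ± 10.5 RPKM and Epcam at 38.5 ± 4.58 RPKM.

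**Figure D1:**
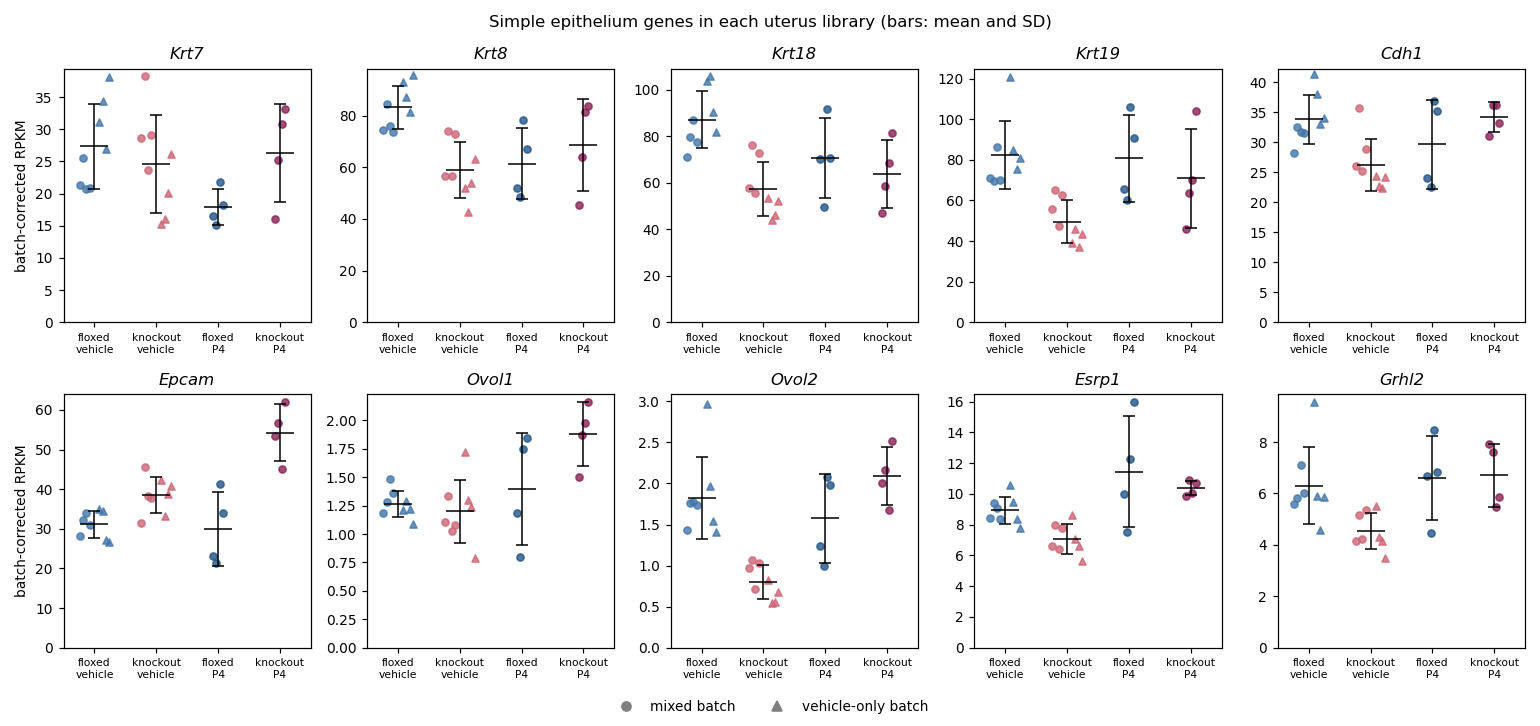
Batch-corrected RPKM (y axes, starting at 0) of the 10 genes in each of the 24 libraries, by group on the x axes, with circles for the mixed and triangles for the vehicle-only batch and bars for mean and SD. All 4 knockout progesterone libraries lie above all 4 floxed ones for Epcam (45.0 to 62.0 against 21.5 to 41.4 RPKM), and all 8 knockout vehicle libraries lie below all 8 floxed ones for Ovol2.

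Several members are neighbours in the genome. In GENCODE M21 (GRCm38) Krt7 lies at chr15:101411043-101430313, Krt8 at chr15:101996698-102004482 and Krt18 at chr15:102028180-102032027, so that 23697 bases separate Krt8 from Krt18 and 566384 bases separate Krt7 from Krt8. Grhl2 lies on the same chromosome at chr15:37233036-37363569. The others are spread out: Krt19 at chr11:100140810-100148665, Cdh1 at chr8:106603351-106670246, Epcam at chr17:87635979-87651129, Ovol1 at chr19:5549136-5560646, Ovol2 at chr2:144305175-144332146 and Esrp1 at chr4:11331933-11386783. Krt7, Krt8, Ovol1, Ovol2, Esrp1 and Grhl2 each overlap an annotated gene on the opposite strand. No source used here gives the strand setting of the counting, so the values of these 6 may include reads of the partner. Of these partners the table lists only Gm16136, an antisense gene at Grhl2.

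RefSeq promoter sequences (GRCm38.p6) matched 5 of the 10 genes: Krt7, Krt8, Krt18, Epcam and Ovol2. Those of Epcam and Krt18 are shown because these genes moved apart in the knockouts, and the bases shown end just before the gene start in GENCODE M21. For Krt18 the RefSeq stretch that was searched runs on to base 102028215. The RefSeq stretches of Krt7 and Ovol2 lie inside their GENCODE genes. Capitals mark the letters searched on both strands: CAGGTG, an E-box read by Zeb and Snail repressors, and GGGCGG, a GC box.
Epcam, chr17:87635729-87635978, plus strand: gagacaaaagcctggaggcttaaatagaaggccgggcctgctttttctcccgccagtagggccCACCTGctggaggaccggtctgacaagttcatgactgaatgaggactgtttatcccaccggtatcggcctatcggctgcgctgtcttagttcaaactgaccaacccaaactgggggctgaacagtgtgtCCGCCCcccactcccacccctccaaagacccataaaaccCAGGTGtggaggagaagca
Krt18, chr15:102027966-102028179, plus strand: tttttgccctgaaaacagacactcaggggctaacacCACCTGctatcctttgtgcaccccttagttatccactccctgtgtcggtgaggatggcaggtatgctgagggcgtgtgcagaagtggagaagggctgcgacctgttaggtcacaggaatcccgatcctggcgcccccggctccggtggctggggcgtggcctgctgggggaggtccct

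Epcam held CAGGTG in 2 places, 1 on each strand, and 1 GC box. Krt18, Krt8 and Krt7 held CAGGTG once each, a hexamer found in 17.2% of the 32851 promoters of the same length. Krt7 held 4 GC boxes, and a GC box was found in 32.7% of promoters. AGGGGGC, the core of the Ctcf motif, was found once in Ovol2 and in 9.43% of all promoters. ACCGGTT of the Grhl type (0.831% of promoters) and CCGTTA of the Ovol type (2.18%) were in none of the 5. No match overlapped another, and a match describes letters only.

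The vehicle libraries compared the genotypes without added hormone. Knockouts carried PgrCre and controls no Cre, so loss of Ctcf and presence of Cre cannot be told apart. After vehicle 7 of 10 members were lower in knockouts and none was higher, while 24.6% of all tested genes were called, 13.1% higher and 11.5% lower (limma, Benjamini-Hochberg over all tested genes, adjusted p below 0.05). The keratins Krt8, Krt18 and Krt19, Cdh1, and the regulators Ovol2, Esrp1 and Grhl2 fell, whereas Krt7, Epcam and Ovol1 did not pass the test. The median log2 fold change of the 10 members was −0.39, beside −0.01 for all tested genes. The tissue was whole uterus, so fewer cells of a type and less RNA per cell cannot be told apart.

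Ovol2 showed the largest difference among the members. Its level ran from 1.40 to 2.97 RPKM with a median of 1.75 RPKM in floxed libraries, and from 0.546 to 1.07 RPKM with a median of 0.770 RPKM in knockouts. Every knockout library lay below every floxed library, which held for 3.63% of all tested genes. The log2 fold change was −0.83 ± 0.14 with a limma adjusted p of 6.86e-05, a level of 0.563 of the floxed one on the scale of RPKM plus 0.5.

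Among the type I keratins, Krt19 ranged from 69.6 to 120.8 RPKM with a median of 78.3 RPKM in floxed libraries and from 37.0 to 65.2 RPKM with a median of 46.7 RPKM in knockouts. These ranges did not overlap either. Its log2 fold change was −0.73 ± 0.16 (limma adjusted p = 0.00144). Krt18 ranged from 71.2 to 105.9 RPKM, median 84.5 RPKM, in floxed and from 44.0 to 76.2 RPKM, median 54.5 RPKM, in knockout libraries. Here knockout libraries 10 and 12 reached into the floxed range. The log2 fold change of Krt18 was −0.61 ± 0.13 (limma adjusted p = 0.00147).

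The type II keratins behaved unlike each other. Krt8, the partner of Krt18, ranged from 73.7 to 95.6 RPKM in floxed libraries with a median of 82.8 RPKM, and from 42.5 to 74.1 RPKM in knockouts with a median of 56.6 RPKM. Only knockout library 10 rose into the floxed range, and the log2 fold change was −0.51 ± 0.13 (limma adjusted p = 0.00534). For Krt7 the knockout range of 15.2 to 38.3 RPKM enclosed the floxed range of 20.8 to 38.1 RPKM, and its log2 fold change of −0.17 ± 0.18 did not pass the test (95% interval −0.55 to 0.21).

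Of the adhesion genes, Cdh1 ranged from 28.2 to 41.3 RPKM with a median of 32.8 RPKM in floxed and from 22.4 to 35.7 RPKM with a median of 24.8 RPKM in knockout libraries. Its log2 fold change was −0.37 ± 0.11 (limma adjusted p = 0.0133), with knockout libraries 10 and 12 inside the floxed range. Epcam ranged from 26.7 to 35.0 RPKM with a median of 31.6 RPKM in floxed and from 31.5 to 45.6 RPKM with a median of 38.5 RPKM in knockout libraries. It was the only member with a positive log2 fold change, 0.30 ± 0.11, which missed the threshold (limma adjusted p = 0.0545, 95% interval 0.07 to 0.54). Without the 5 libraries that stood apart it was 0.38 ± 0.11 and passed (limma adjusted p = 0.0182), as it did with libraries weighted by their residual spread (0.34 ± 0.09, limma adjusted p = 0.00381). With no batch term it passed too (0.30 ± 0.11, limma adjusted p = 0.0461). These were 3 of 13 alternatives other than leaving 1 library out, and it did not pass in the rest. It also passed in 6 of 24 fits with 1 library left out (adjusted p from 0.0259 to 0.110): vehicle library 1a of the floxed or 5 or 9 of the knockout mice, or floxed progesterone library 1, 2 or 7.

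Among the other regulators, Grhl2 fell from 6.31 ± 1.49 to 4.54 ± 0.708 RPKM (log2 fold change −0.42 ± 0.13, limma adjusted p = 0.0213). Esrp1 fell from 8.94 ± 0.882 to 7.09 ± 0.977 RPKM (−0.32 ± 0.11, limma adjusted p = 0.0333). In both genes the ranges of the genotypes overlapped. Without the 5 libraries neither passed, at −0.41 ± 0.15 (limma adjusted p = 0.0603) for Grhl2 and −0.32 ± 0.13 (limma adjusted p = 0.102) for Esrp1. Ovol1, the relative of Ovol2, was 1.26 ± 0.118 RPKM in the floxed libraries and 1.20 ± 0.275 RPKM in knockout libraries, a log2 fold change of −0.07 ± 0.12 (95% interval −0.31 to 0.17). In all, 5 members were lower and 1 higher without these libraries, where 8.83% of tested genes were lower and 11.2% higher. With any 1 library left out, the adjusted p of Esrp1 ran from 0.0109 to 0.0735 (limma), and it passed in 16 of 24 fits. It did not pass without floxed library 1a, 2, 3 or 7 or knockout library 9, 11a, 11b or 13, where the log2 fold change lay between −0.32 and −0.27.

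**Figure D2:**
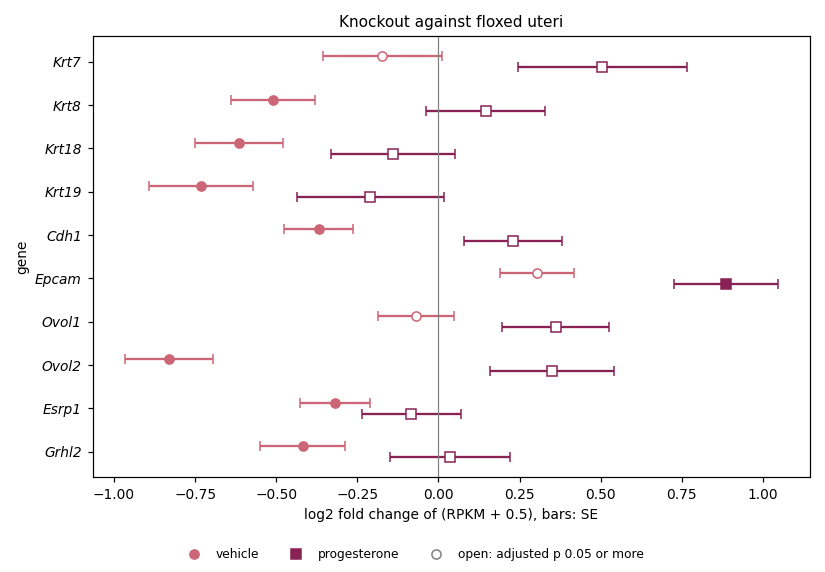
Log2 fold change of RPKM plus 0.5 (x axis, bars SE) of knockout against floxed uteri for each gene (y axis), with circles for vehicle, squares for progesterone and open symbols for an adjusted p of 0.05 or more. After vehicle 7 filled circles lie left of 0, and after progesterone the one filled symbol is Epcam at 0.88.

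The 2 batches of vehicle libraries did not give the same sizes. In the vehicle-only batch alone, 6 members were lower in knockouts (Krt7, Krt8, Krt18, Krt19, Cdh1 and Ovol2), beside 3.19% of all tested genes. In the mixed batch alone only Ovol2 was called lower (−0.59 ± 0.17, limma adjusted p = 0.0226), beside 8.58% of genes. Krt18 was −0.96 ± 0.12 in the vehicle-only and −0.27 ± 0.18 in the mixed batch, Krt19 −1.10 ± 0.15 and −0.36 ± 0.21, Krt8 −0.76 ± 0.13 and −0.25 ± 0.18, and Cdh1 −0.63 ± 0.09 and −0.11 ± 0.15. Ovol2 was −1.07 ± 0.20 in the vehicle-only batch. Esrp1 (−0.36 ± 0.14 and −0.28 ± 0.16), Grhl2 (−0.49 ± 0.21 and −0.35 ± 0.16) and Epcam (0.33 ± 0.12 and 0.28 ± 0.17) had nearer values in both.

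Krt7 turned over between batches. In the mixed batch the 4 floxed libraries were 20.8, 20.9, 21.3 and 25.5 RPKM and the 4 knockout libraries 23.7, 28.6, 29.0 and 38.3 RPKM, so all knockouts but the lowest lay above the floxed range. In the vehicle-only batch the floxed libraries were 26.8, 31.2, 34.4 and 38.1 RPKM and the knockouts 15.2, 16.1, 20.1 and 26.1 RPKM, so every knockout library was lower. The log2 fold changes were 0.41 ± 0.19 (limma adjusted p = 0.158) and −0.76 ± 0.18 (limma adjusted p = 0.0318). Their difference, tested as an interaction among the 16 vehicle libraries that was added after the values were seen, was −1.17 ± 0.24 with a limma adjusted p of 0.0481. Only 0.371% of all tested genes passed that test, 0.154% in the lower direction, and no other member did. The authors' correction sets the vehicle means of both batches equal, so it moves levels of a whole batch, keeps differences in RPKM within it and can change their ratios. What differed between the batches besides sequencing depth was not tested.

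**Figure D3:**
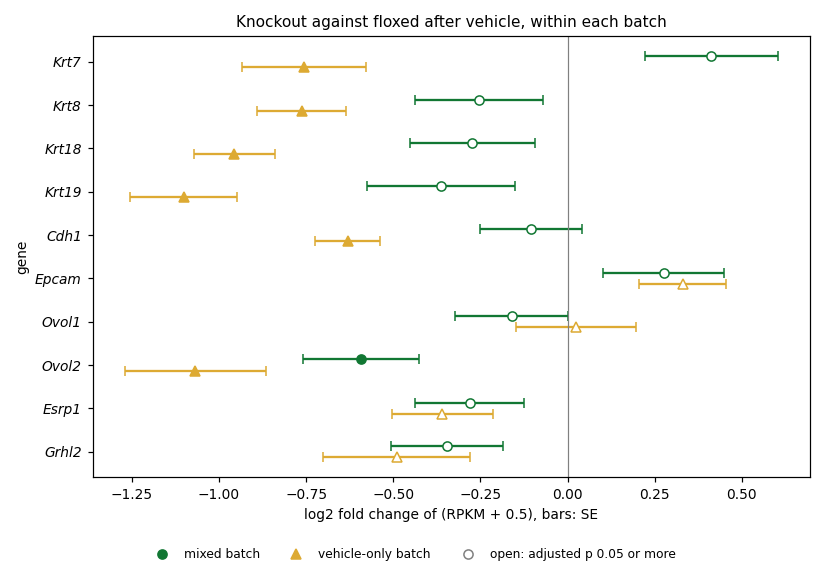
Log2 fold change of RPKM plus 0.5 (x axis, bars SE) of knockout against floxed vehicle libraries within each batch, by gene (y axis), with circles for the mixed and triangles for the vehicle-only batch, and open symbols for an adjusted p of 0.05 or more. Krt7 lies at 0.41 in one batch and −0.76 in the other, while Epcam lies at 0.28 and 0.33.

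Levels of the members were also read relative to Epcam within the same library. Epcam was taken as the reference with its change already known, and a higher Epcam lowers every ratio to it, so these ratios are a description of relative levels and carry no test. After vehicle 9 of 9 log2 ratios (RPKM plus 0.5 of both genes) were lower in knockouts. For Krt18 the plain ratio to Epcam ran from 2.47 to 3.31 in floxed and from 1.19 to 1.93 in knockout libraries. For Cdh1 it ran from 0.937 to 1.28 and from 0.576 to 0.829, so that the level of Cdh1 was near that of Epcam in every floxed vehicle library and below it in every knockout one. The log2 ratio differed between genotypes by −1.13 for Ovol2, −1.04 for Krt19, −0.92 for Krt18, −0.81 for Krt8, −0.72 for Grhl2, −0.67 for Cdh1 and −0.62 for Esrp1, with no overlap between genotypes. Krt7 (−0.48) and Ovol1 (−0.37) overlapped. Within batches those 7 ratios were also lower without overlap. The ratio of Krt7 was 0.14 higher among mixed and lower (−1.09) among vehicle-only libraries, and that of Ovol1 was lower without overlap among mixed libraries (−0.44) and overlapped in the vehicle-only batch (−0.31).

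Against Cdh1 as the reference, 18 ratios were compared between genotypes with two-sided exact permutation tests and Benjamini-Hochberg adjustment over them, and 4 passed, all after vehicle. Epcam was higher by 0.67, and Ovol2 (−0.46), Krt19 (−0.36) and Krt18 (−0.25) were lower (exact permutation, adjusted p from 0.0014 to 0.0028). Cdh1 was itself called lower after vehicle, and a lower Cdh1 raises every ratio to it. The ratio of Epcam to Cdh1 is the ratio of Cdh1 to Epcam above with its sign reversed. Its p-value therefore adds nothing to that description. Esrp1 and Grhl2 were 0.05 and −0.05 relative to Cdh1 after vehicle. After progesterone Esrp1 was −0.31 relative to Cdh1 with no overlap between genotypes (exact permutation p = 0.0286, adjusted 0.0857), and Grhl2 was −0.19 (exact permutation p = 0.343, adjusted 0.441). With 4 against 4 libraries 0.0286 is the lowest p that this test can give. It passes the adjustment only if many of the 18 are as small. That the 4 ratios that passed were all after vehicle therefore shows no difference between treatments. A ratio within a library shows unequal change and does not say which of its genes changed.

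**Figure D4:**
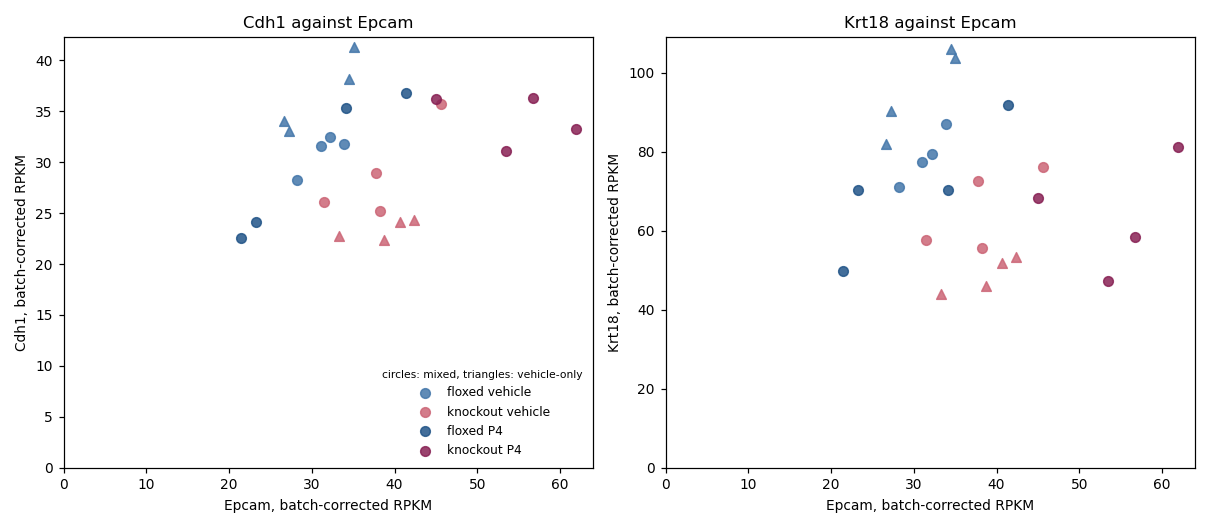
Batch-corrected RPKM of Cdh1 (left) and Krt18 (right) on the y axes against that of Epcam on the x axes, with one point for each of the 24 libraries, coloured by group, circles for the mixed and triangles for the vehicle-only batch. Knockout libraries lie below floxed ones of the same Epcam level, and the ratio of Krt18 to Epcam is 2.07 or more in every floxed library and 1.93 or less in every knockout one.

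After 6 hours of progesterone Epcam was the member that passed the test between genotypes. It was 21.5, 23.2, 34.1 and 41.4 RPKM in the 4 floxed libraries and 45.0, 53.4, 56.7 and 62.0 RPKM in the 4 knockouts. Every knockout library lay above every floxed one, as in 11.8% of all tested genes. The log2 fold change was 0.88 ± 0.16 with a limma adjusted p of 0.000368, a level 1.85 times the floxed one. Epcam was the 1 member called, beside 19.4% of tested genes (12.3% higher, 7.06% lower). It stayed between 0.74 and 1.05 with any 1 library left out, and was 0.99 ± 0.16 without the 5 libraries that stood apart.

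No other member passed. Ovol1 was 0.798, 1.18, 1.75 and 1.85 RPKM in the floxed libraries and 1.5, 1.87, 1.98 and 2.16 RPKM in knockout libraries, a log2 fold change of 0.36 ± 0.17 (limma adjusted p = 0.132). Krt7 was 15.1, 16.6, 18.2 and 21.7 RPKM in the floxed libraries and 16.1, 25.1, 30.8 and 33.2 RPKM in knockout libraries, a log2 fold change of 0.51 ± 0.26 (limma adjusted p = 0.187). In both genes 3 knockout libraries lay above the floxed range and 1 within it.

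Ovol2, lower in knockouts after vehicle, was 0.35 ± 0.19 after progesterone (95% interval −0.05 to 0.75). The keratins Krt8 (0.15, 95% interval −0.23 to 0.53), Krt18 (−0.14, −0.53 to 0.25) and Krt19 (−0.21, −0.68 to 0.26) had intervals that cross 0 and reach a change of about 0.5 log2 units or more. The same held for Cdh1 (0.23, −0.08 to 0.54), while Esrp1 (−0.08, −0.40 to 0.23) and Grhl2 (0.04, −0.35 to 0.42) were nearer to 0. The median of the 10 members was 0.19, beside 0.03 for all tested genes. The design had 4 libraries per group here, and these intervals are wider than after vehicle.

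Relative to Epcam, the member that was higher here, the other members had lower ratios in knockouts after progesterone too, again as a description. The ratio of Krt18 to Epcam was 2.07, 2.22, 2.32 and 3.02 in floxed and 0.882, 1.03, 1.31 and 1.52 in knockout libraries. With Cdh1 as the reference no ratio passed after progesterone, and the lowest adjusted p, 0.0857 (exact permutation), was that of Epcam, higher by 0.65, and of Esrp1. Both had the lowest p that 4 against 4 libraries can give (exact permutation p = 0.0286). The ratio of Epcam to Cdh1 was higher by 0.67 after vehicle, so no smaller difference is read from the missed threshold.

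The balance of the keratins, a ratio of member levels already described above, was also compared between genotypes. The sum of the type II keratins Krt7 and Krt8 over the sum of the type I keratins Krt18 and Krt19 was 0.659 ± 0.088 in floxed and 0.785 ± 0.0905 in knockout vehicle libraries (n = 8 each, two-sided exact permutation p = 0.0148). Within batches it was 0.652 ± 0.0737 against 0.769 ± 0.0209 in the mixed batch (exact permutation p = 0.0286) and 0.666 ± 0.112 against 0.801 ± 0.134 in the vehicle-only batch (exact permutation p = 0.171). After progesterone it was 0.529 ± 0.0341 in floxed and 0.709 ± 0.0802 in knockout libraries (n = 4 each, exact permutation p = 0.0286). There every knockout library, from 0.632 up, lay above every floxed library, at 0.577 or below. An exact permutation p of 0.0286 is the lowest that 4 against 4 libraries can give. These p-values are not adjusted and add no evidence beyond the keratin levels themselves.

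The next comparisons asked how the members respond to progesterone in each genotype. The 2 responses share no libraries with each other, but each shares its vehicle or progesterone libraries with a genotype comparison above. In floxed uteri Krt8 was the 1 member called, lower by −0.48 ± 0.17 (limma adjusted p = 0.0479), beside 23% of tested genes (7.84% higher, 15.1% lower). Its values were 48.5, 52.1, 66.9 and 78.2 RPKM after progesterone, of which the highest lies inside the vehicle range of 73.7 to 95.6 RPKM. This call was close to the threshold: with any 1 library left out it passed in 7 of 24 fits, and its adjusted p ran from 0.0227 to 0.16 (limma), highest without floxed progesterone library 2 (−0.37 ± 0.18). Without that library Esrp1 passed instead, at 0.46 ± 0.13 (limma adjusted p = 0.0143), against 0.29 ± 0.14 (limma adjusted p = 0.157) with all libraries. With libraries weighted by their residual spread, Krt8 was likewise not called (−0.28 ± 0.14, limma adjusted p = 0.107) and Esrp1 was called higher (0.45 ± 0.12, limma adjusted p = 0.00388). Krt7 (−0.60 ± 0.24, limma adjusted p = 0.0804) and Krt18 (−0.36 ± 0.18, limma adjusted p = 0.154) did not pass, and the median of the members was −0.16, beside −0.06 for all tested genes.

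In knockout uteri all 10 members had positive log2 fold changes, and 4 passed: Ovol2, Esrp1, Ovol1 and Epcam. Of all tested genes 8.67% were called, 4% higher and 4.66% lower. The median of the members was 0.46, beside −0.02 for all tested genes. Ovol2 was 1.68, 2.00, 2.17 and 2.52 RPKM after progesterone, above all 8 knockout vehicle libraries, which reached 1.07 RPKM. Such a separation upward was found in 3.69% of tested genes. Its log2 fold change was 0.96 ± 0.18 (limma adjusted p = 0.00151), and its mean of 2.09 ± 0.352 RPKM stands beside 1.82 ± 0.501 RPKM in floxed vehicle uteri.

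Esrp1 was 9.89, 10.1, 10.7 and 10.9 RPKM after progesterone, also above the whole knockout vehicle range of 5.64 to 8.63 RPKM. Its log2 fold change was 0.52 ± 0.14 (limma adjusted p = 0.0244). Epcam (0.49 ± 0.15, limma adjusted p = 0.045) and Ovol1 (0.49 ± 0.15, limma adjusted p = 0.0498) lay just inside the threshold, and their ranges overlapped those after vehicle. Grhl2 (0.49 ± 0.17, limma adjusted p = 0.0809), Cdh1 (0.37 ± 0.14, limma adjusted p = 0.106) and Krt19 (0.43 ± 0.21, limma adjusted p = 0.235) did not pass, though Cdh1 did without knockout vehicle library 10 (0.48 ± 0.13, limma adjusted p = 0.0278). The keratins Krt7, Krt8 and Krt18 were nearer to 0, at 0.08, 0.18 and 0.12.

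In the mixed batch alone, which holds every progesterone library, Ovol2 was the member still called. Epcam was 0.50 ± 0.17 there (limma adjusted p = 0.0911), Ovol1 0.54 ± 0.16 (limma adjusted p = 0.0522) and Esrp1 0.50 ± 0.16 (limma adjusted p = 0.0588), while Krt7 (−0.21) and Krt18 (−0.054) were negative. Without the 5 libraries that stood apart, Ovol2 alone passed in knockouts (0.98 ± 0.22, limma adjusted p = 0.0209), beside 1.41% of tested genes that were higher. Esrp1 was then 0.52 ± 0.19 (limma adjusted p = 0.172), Ovol1 0.40 ± 0.19 (limma adjusted p = 0.335) and Epcam 0.34 ± 0.15 (limma adjusted p = 0.293). With single libraries left out, the call of Epcam held in 11 of 24 fits (adjusted p from 0.0204 to 0.135) and that of Ovol1 in 6 (0.0248 to 0.137). Both had their highest adjusted p without knockout progesterone library 8. The call of Esrp1 held in 20 fits and was lost without knockout progesterone library 5 or 8 or knockout vehicle library 9 or 11b (limma adjusted p from 0.0531 to 0.0664), while Ovol2 passed in all 24.

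**Figure D5:**
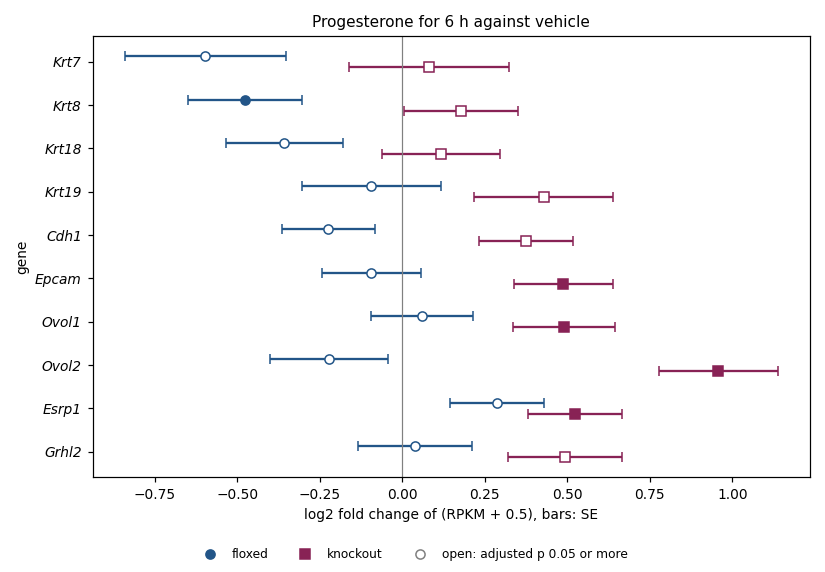
Log2 fold change of RPKM plus 0.5 (x axis, bars SE) after progesterone against vehicle, by gene (y axis), with circles for floxed and squares for knockout uteri, and open symbols for an adjusted p of 0.05 or more. Knockout symbols lie to the right of floxed ones for all 10 genes, with the widest gap at Ovol2 (−0.22 and 0.96).

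The difference between the 2 responses was tested directly. Only Ovol2 passed, with a response higher in knockouts by 1.18 ± 0.24 log2 units (limma adjusted p = 0.00595), beside 2.49% of tested genes (1.46% higher, 1.03% lower). In floxed uteri Ovol2 had values of 0.993, 1.24, 1.98 and 2.08 RPKM after progesterone, within and below the vehicle range, and a log2 fold change of −0.22 ± 0.18 that did not pass. For all 10 members the difference was positive, from 0.24 for Esrp1 to 1.18 for Ovol2, with a median of 0.55 beside 0.03 for all tested genes. Cdh1 (0.60 ± 0.18, limma adjusted p = 0.0937), Epcam (0.58 ± 0.20, limma adjusted p = 0.134) and Krt8 (0.65 ± 0.22, limma adjusted p = 0.142) missed the threshold. Without the 5 libraries Ovol2 was 1.29 ± 0.27 (limma adjusted p = 0.0218). Without floxed progesterone library 7 alone, Epcam (0.75 ± 0.18, limma adjusted p = 0.0237) and Cdh1 (0.71 ± 0.18, limma adjusted p = 0.0415) passed as well. Cdh1 also passed without knockout vehicle library 10 (0.67 ± 0.17, limma adjusted p = 0.0328), and Krt8 without knockout progesterone library 4 (0.84 ± 0.21, limma adjusted p = 0.0314).

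After vehicle, other genes of epithelial cells did not follow the members as a block. Of 36 listed genes for junctions, polarity, trafficking and epithelial transcription, 34 could be tested and Ovol3 was listed at 0 in every library. After vehicle 9 were higher and 10 lower in knockouts, beside 13.1% and 11.5% of all tested genes, with a median log2 fold change of 0.01. After progesterone 13 were higher and 3 lower, beside 12.3% and 7.06%, with a median of 0.35. Prom2, a membrane protein of epithelial protrusions, was higher by 2.46 ± 0.15 and 2.38 ± 0.22 (limma adjusted p = 7.55e-11 and 4.47e-08). Grhl3, a relative of Grhl2, was higher after vehicle by 1.44 ± 0.12 (limma adjusted p = 3.68e-09), while Grhl2 was lower. St14, a membrane serine protease, was higher by 0.73 ± 0.09 and 1.12 ± 0.13. Ehf, an ETS-family factor of epithelia, was lower in knockouts by −1.72 ± 0.24 after vehicle (limma adjusted p = 9.91e-06). In the floxed response to progesterone the list had 3 higher and 8 lower genes, beside 7.84% and 15.1% of all tested genes. In the knockout response it had 6 higher and 1 lower, beside 4% and 4.66%. There 29 of the 34 were positive (median 0.26, members 0.46). The difference of the responses was positive for 29 too (median 0.46, members 0.55). Of 8 luminal and glandular genes 6 had a positive difference (median 0.69). A positive difference was thus not particular to the members.

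Of 10 mesenchymal genes, which Ovol factors and Grhl2 are known to oppose, 3 were higher and 1 lower in knockouts after vehicle, beside 24.6% of all tested genes called, and 2 were higher and 1 lower after progesterone, beside 19.4%. With 10 genes, nothing is read from these counts. The lower gene after vehicle was Twist2 (−0.47 ± 0.13, limma adjusted p = 0.00853). The higher ones were Cdh2, the cadherin of mesenchymal cells (0.64 ± 0.08, limma adjusted p = 3.64e-06), Prrx1 (0.33 ± 0.06, limma adjusted p = 0.000431) and Fn1 (0.35 ± 0.10, limma adjusted p = 0.0135). The rest of the list did not pass after vehicle. In this tissue stroma and muscle express most of these genes.

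Markers of particular epithelia and of other cells moved in the same libraries. Of 8 tested genes of luminal and glandular epithelium 5 were lower and 1 higher in knockouts after vehicle, beside 11.5% and 13.1% of all tested genes. After progesterone 2 were lower and 2 higher, beside 7.06% and 12.3%. The summed level of the 10 listed genes was 100.1 to 191.1 RPKM in floxed and 46.4 to 77.5 RPKM in knockout vehicle libraries, and 91.3 to 184.6 and 64.2 to 107.9 RPKM after progesterone. The gland genes Cxcl15 (−2.29 ± 0.19, limma adjusted p = 5.12e-09) and Foxa2 (−2.01 ± 0.24, limma adjusted p = 1.04e-06) fell further than any member after vehicle. Lif was the higher gene (0.84 ± 0.11, limma adjusted p = 7.23e-06). After progesterone the higher genes were Wnt7a (1.33 ± 0.24, limma adjusted p = 0.000384) and Lif (0.83 ± 0.16, limma adjusted p = 0.000736). Krt17, a keratin of stratified and stressed epithelium, was higher by 3.90 ± 0.22 after vehicle (limma adjusted p = 2.25e-11). Of the 7 tested stratified genes 1 other was lower, beside 11.5% of all tested genes. All 8 tested leukocyte genes were higher in knockouts at both treatments, beside 13.1% of all tested genes after vehicle and 12.3% after progesterone. Sums of the listed leukocyte genes were 89.3 to 150.0 RPKM in floxed and 195.0 to 365.8 RPKM in knockout vehicle libraries. After progesterone they were 91.9 to 157.5 and 144.9 to 358.0 RPKM.

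Mesothelium, the simple epithelium of the outer uterine surface, also expresses keratins. Of its 6 tested genes 2 were higher in knockouts after vehicle, beside 13.1% of all tested genes: Lrrn4 (0.85 ± 0.22, limma adjusted p = 0.00486) and Upk3b (0.63 ± 0.22, limma adjusted p = 0.0386). After progesterone Upk3b was higher and Upk1b lower, beside 12.3% and 7.06%. With 6 genes, nothing is read from these counts. In the floxed response 3 were lower, beside 15.1% of all tested genes: Msln (−1.98 ± 0.56, limma adjusted p = 0.0136), Upk3b (−0.96 ± 0.29, limma adjusted p = 0.0192) and Gpm6a (−0.66 ± 0.21, limma adjusted p = 0.0271). Msln was near 0 there, with a median of 0.210 RPKM in floxed progesterone libraries. In the knockout response Gpm6a was lower (−1.12 ± 0.21, limma adjusted p = 0.00163), beside 4.66% of all tested genes, and Msln did not pass (−1.74 ± 0.56, limma adjusted p = 0.0546). The median of the 6 genes was −0.70 in the floxed and −0.78 in the knockout response. The sum of 7 listed genes was 51.7 to 87.2 RPKM in floxed and 65.7 to 98.4 RPKM in knockout vehicle libraries, and 35.0 to 56.3 and 48.7 to 66.1 RPKM after progesterone. It was highest in knockout vehicle library 10. The part of all these cells in the member results was not tested.

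Members also varied together within groups. After the mean of each group and batch was removed, Krt7 and Krt8 had a Pearson correlation of 0.88 over the 24 libraries, Ovol1 and Esrp1 one of 0.85, and Epcam and Ovol2 one of 0.82, whereas Krt7 and Grhl2 had −0.13. Krt7 had the lowest mean correlation with the other members, 0.37, and Cdh1 the highest, 0.68. Outside the members, the genes most like them by this measure were Rab25 (mean 0.72), a recycling endosome GTPase, Tspan8 (0.71), Bspry (0.71), the polarity gene Crb3 (0.71), Ap1m2 (0.70), a sorting adaptor subunit of epithelia, Urah (0.69), Hoxb7 (0.68) and Tmem102 (0.68). Genes of one library share its tissue composition and its depth, so these values are a description.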

How the data were processed

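RNA of 24 uterus libraries was measured by RNA-seq (Trizol extraction, DNase, TruSeq, per the labels' protocols). The submitters' processing notes name cutadapt 2.7, TopHat, Partek and mm10. No source used here gives the counting tool, its annotation or its strand setting. The authors deposited gene-level RPKM after batch correction, treated here as a score, since 6.66% of values lie below 0. Vehicle means of both batches were equal (tolerance 0.0001) for 13688 of 13688 genes with a mean above 1, so a constant per gene was added by batch. The lowest member value was 0.546 RPKM. The planned test, which had assumed uncorrected RPKM, was run unchanged.

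Values below 0 were set to 0, and log2(RPKM + 0.5), which understates changes of low genes, was tested with limma 3.58.1 (eBayes with robust trend, under R 4.3.3) for the 14284 genes with at least 1 in 4 libraries. All groups and a batch term shared 1 fit with 19 residual degrees of freedom. All tests were two-sided. The threshold was a Benjamini-Hochberg adjusted p of 0.05, and the fit was tested on simulated data. Ratios to Cdh1 and the keratin balance were compared by exact permutation. Ratios to Epcam, planned with the same test, are given as a description. The table gives no counts, so no counting intervals are given. Members, lists and alternatives were chosen with earlier results of these data known. All members are named, and of each other list at most the 5 with the smallest adjusted p per genotype comparison could be named. For 1 gene counted in the list of epithelial genes, which this rule would name, no value is given here.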

Additional observations from a re-analysis of the deposited data

Results flagged for a closer look

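In floxed vehicle library 1a, Krt19 was 120.8 RPKM and Ovol2 was 2.97 RPKM. Each stood far from the other 7 libraries of its group, which reached 86.3 RPKM for Krt19 and 1.97 RPKM for Ovol2. These were 2 of 40 groups of member values checked for a lone high or low library, and chance gives about 1 in 20. Without this library the genotype difference after vehicle was still called for both genes.

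The response of Ovol2 to progesterone differed between genotypes, higher in knockouts by 1.18 ± 0.24 log2 units (limma adjusted p = 0.00595). It had the lowest knockout vehicle levels relative to floxed of all members, and all 4 knockout progesterone libraries exceeded all 8 knockout vehicle libraries.

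The genotype difference of Krt7 after vehicle differed between batches, by −1.17 ± 0.24 log2 units from the mixed to the vehicle-only batch (limma adjusted p = 0.0481). Knockouts were lower in 4 of 4 libraries of the vehicle-only batch and above the floxed range in all but 1 library of the mixed batch.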

How the results depend on the processing

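After vehicle 7 members were called with all libraries, 6 in the vehicle-only batch alone and 1 in the mixed batch alone. With 2 choices changed at once, the mixed batch without the 5 libraries that stood apart, 0 were called, an alternative added after seeing the data. With 1 library left out it was 6 to 8. Whether replicate numbers pair the samples was not settled. Same-numbered libraries of different groups had residual correlations from −0.342 to 0.544, with 6 of 11 pairs over 0.1. Floxed vehicle libraries 1a and 1b, and knockout vehicle libraries 11a and 11b, were not among these pairs. With the numbers as a replicate block, 1 member was called after vehicle, 0 after progesterone (Epcam 0.95, limma adjusted p = 0.0996), 2 in the floxed response, 0 in the knockout response, and 0 for the difference of responses (Ovol2 1.34, limma adjusted p = 0.191).

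After progesterone 1 member was called in every fit with 1 library left out, and library weights gave 2 (Epcam higher, Krt19 lower). The floxed response had 1 call, and 0 with no filter, on the deposited scale, and in the mixed batch with or without the 5 libraries. With library weights it was 1 call of another gene in the other direction (Esrp1 higher in place of Krt8 lower). The range with 1 library left out was 0 to 1. The knockout response had 4 calls, 2 with no filter and 2 with a filter of 5 RPKM, which removes Ovol1 and Ovol2. It had 6 with no batch term, where Cdh1 (0.39, limma adjusted p = 0.045) and Grhl2 (0.51, limma adjusted p = 0.0318) passed as well. It had 7 with library weights, 1 in the mixed batch, 1 without the 5 libraries and 0 with both limits. Fits without 1 library gave 1 to 4. The difference of responses had 1 call, 0 with the filter of 5 RPKM, 3 with library weights and 0 in the mixed batch without the 5 libraries. Leaving out 1 library gave 1 to 3. Settings also change the calls over all tested genes: 4% were higher in the knockout response with all libraries and 1.41% without the 5 libraries. The member counts of this section stand without that share and show only how the calls depend on the processing.

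Ratios to Epcam are a description, since Epcam was chosen with its change known and a higher Epcam lowers every ratio to it. Counts of these ratios with an adjusted exact permutation p below 0.05 show only how they depend on the processing. They are no evidence of a change in the other members. The count was 16 of 18, 8 of 9 in the vehicle-only batch, and 9 without the 5 libraries, where 3 against 3 cannot pass. Without 1 library the count for Epcam was 14 to 17. With Cdh1 as the reference it was 4. The keratin balance was 0.135 higher in knockouts of the vehicle-only batch and, after progesterone, 0.198 higher without the 5 libraries, neither past the threshold. Leaving out 1 library gave 0.104 to 0.149 after vehicle and 0.146 to 0.206 after progesterone, the latter not past the threshold without floxed library 1 (0.172) or 7 (0.172).

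Some log2 fold changes near 0 changed sign. After vehicle these were Krt7 in the mixed batch (0.41, and 0.42 without the 5 libraries), its ratio to Epcam there (0.14) and Ovol1 in the vehicle-only batch (0.024). After progesterone they were Krt8 with library weights (−0.029) and Grhl2 with quantile normalization (−0.017), and leaving out 1 library gave −0.26 to 0.088 for Esrp1 and −0.13 to 0.16 for Grhl2. In the floxed response Krt19 was 0.090 in the mixed batch, 0.20 with weights and 0.022 in the mixed batch without the 5 libraries. With weights Cdh1 was 0.042, Epcam 0.10 and Ovol2 0.057. Without the 5 libraries Ovol1 was −0.014 and Grhl2 −0.030, and in the mixed batch without them Ovol1 was −0.042. Leaving out 1 library gave −0.24 to 0.032 for Krt19, −0.26 to 0.047 for Epcam, −0.056 to 0.23 for Ovol1 and −0.083 to 0.20 for Grhl2. In the knockout response Krt7 was −0.21 and Krt18 −0.054 in the mixed batch, Krt18 −0.026 with the replicate block, and Krt7 −0.37, Krt8 −0.064 and Krt18 −0.18 in the mixed batch without the 5 libraries. Leaving out 1 library gave −0.045 to 0.29 for Krt7 and −0.0081 to 0.25 for Krt18. The cause was not tested for any of these.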
